A study of Mus musculus with 22 samples.

Results

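The 6 MC38 tumors described here were excised on day 14 of an antibody experiment in wild-type C57BL/6N mice, and they are 6 of the 22 RNA libraries of the series. The other 16 are tumors of wild-type mice (days 23 and 46) and of RAG1 knockout mice (days 13 and 23), MC38 cultures and skin. MC38 is a chemically induced colon adenocarcinoma line of C57BL/6 origin that grows as a transplant under the skin. Per the labels and the methods of the study, mice of 8 to 12 weeks received 500000 MC38 cells subcutaneously and then, every 3 to 4 days from day 1, an intraperitoneal dose of 0.5 mg of either the anti-PD-L1 antibody 10F.9G2 or the IgG2b control antibody LTF-2. The labels give 3 tumors to each antibody. The members were chosen as all 6 columns of the normalized count table of this experiment, and the column names, which end in 31 to 36, match no sample label. The tumors are therefore called tumor 31 to tumor 36, no antibody is assigned to any of them, and no comparison between the antibodies was made. Differences between tumors below hold any effect of the antibody together with the spread between mice of the same arm, and these cannot be told apart. RNA came from the complete excised tumor, so a level is an average over cancer cells and host cells, and fewer cells of a type cannot be told apart from less RNA per cell.

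The PD-1 pathway is a brake on T cells. Activated CD8 T cells carry the receptor PD-1 (Pdcd1), and its ligand PD-L1 (Cd274) is induced on cancer and myeloid cells by interferon-gamma (Ifng), which the same T cells release. Interferon-gamma acts, in part through the transcription factor Irf1, on genes with GAS or ISRE elements in their promoters, among them the guanylate-binding proteins (Gbp), the T cell attracting chemokine Cxcl9 and the antigen presentation machinery.

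Reads assigned to genes numbered 13455896 to 20581512 per tumor. QuantSeq reads come from the 3′ end of a transcript, so the counts are not scaled by gene length, and values are compared between tumors within a gene. The limit that a count of 0 allows, 3 reads, was 2.40 to 3.76 normalized counts. No pair of tumors was a single library deposited more than once, as read counts of every pair differed beyond sampling noise (chi-square over its degrees of freedom of 25.2 or more). The table lists 46882 genes. Those whose 6 values averaged 5 normalized counts or more, 15381 in number, are called measured. Pearson's r of log2 values over these genes, which are not independent replicates, ran from 0.925 between tumors 32 and 36 to 0.970 between tumors 35 and 36. By defining markers, the libraries held T cells, macrophages, fibroblasts and skeletal muscle, whereas gut epithelial genes were nearly absent. Of 12 such genes only Cdh1 and Lgals4 were measured, Epcam had 0 to 5.19 normalized counts, and Cldn7 and Cdx2 had no read in any tumor. The 4 Y-linked genes examined had at most 1 read in any tumor. Xist, which is expressed from the inactive X chromosome of female cells, had 547 to 1722 normalized counts in the 6 tumors and no read in either MC38 culture library.

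Promoters are shown for 3 members of the interferon-gamma response list that rose with Cd8a across the tumors, because they carry the elements through which this response is known to act. RefSeq promoters (GRCm38.p6, 250 bases before to 50 after the start site, 5′ to 3′ on the gene's strand) were found for 15 of the 20 genes of this list, 18 windows in all. Capitals mark the letters TTCNNNGAA (a GAS element, the same on both strands) and the letters GAAA, any 2 bases and GAAA again, or TTTC in the same spacing for the opposite strand (an ISRE core).
Gbp5, chr3:142496684-142496983, plus strand: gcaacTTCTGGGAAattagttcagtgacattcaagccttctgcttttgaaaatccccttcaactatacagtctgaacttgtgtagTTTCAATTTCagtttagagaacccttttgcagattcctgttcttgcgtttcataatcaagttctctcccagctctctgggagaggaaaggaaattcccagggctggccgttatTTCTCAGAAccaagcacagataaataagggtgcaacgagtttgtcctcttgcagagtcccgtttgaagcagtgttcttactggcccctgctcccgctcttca
Irf1, chr11:53769764-53770063, plus strand: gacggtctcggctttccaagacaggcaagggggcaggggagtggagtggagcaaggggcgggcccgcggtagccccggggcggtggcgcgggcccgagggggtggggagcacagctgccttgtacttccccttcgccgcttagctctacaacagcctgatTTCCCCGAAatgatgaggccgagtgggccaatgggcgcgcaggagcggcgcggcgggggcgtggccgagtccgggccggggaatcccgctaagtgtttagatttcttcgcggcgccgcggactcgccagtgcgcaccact
Socs1, chr16:10785487-10785786, minus strand: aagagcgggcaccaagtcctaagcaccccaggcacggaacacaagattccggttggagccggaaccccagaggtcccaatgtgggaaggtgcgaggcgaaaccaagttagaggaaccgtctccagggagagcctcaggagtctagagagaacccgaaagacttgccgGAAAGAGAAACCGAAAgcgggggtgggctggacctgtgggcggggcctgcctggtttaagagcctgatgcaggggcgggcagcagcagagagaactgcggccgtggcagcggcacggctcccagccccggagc
The Gbp5 window held a GAS match 245 and another 52 bases before the start site and an ISRE match 165 bases before it. The Irf1 window shown held a GAS match 90 bases before the start site, while another Irf1 window (chr11:53770223-53770522) held neither run of letters. The Socs1 window held ISRE matches at 83 and 77 bases that overlap and are printed as a single run. The windows of Cd274 and Cxcl9 held neither run of letters. The ISRE letters occurred in 8 of the 18 windows of the interferon-gamma list (44.4%) and in 9 of 17 windows of the type I interferon list (52.9%), against 3.44% of all 32851 windows. The GAS letters occurred in 6 of 18 (33.3%) and 2 of 17 (11.8%), against 8.30% of all. Among genes that rose with Cd8a the ISRE letters stood in 58 of 802 windows (7.23%), and among genes that fell in 7 of 314 (2.23%). The GAS letters stood in 74 of the 802 (9.23%) and in 20 of the 314 (6.37%), near the share of all windows. Both interferon lists were drawn up as known interferon targets, so their share of such letters is a description of the lists. Members of both lists are among the genes that rose. The share of all windows also covers genes that were not measured here, and no share over measured genes alone was taken.

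Spread between the tumors was large for genes of T cells, cytotoxic cells, B and plasma cells, fat and muscle and small for genes of cell division. A range is the distance, on the scale of log2(normalized count + 1), between the highest and the lowest of the 6 tumors. Over all measured genes the median range was 0.97, and 3237 genes (21.0%) differed 4-fold or more between their highest and lowest tumor. Of the lists examined, 17 of 19 T cell genes, 15 of 16 cytotoxic effector genes, all 9 measured NK receptor and NK cell genes, 12 of 15 checkpoint and regulatory T cell genes and all 12 skeletal muscle genes had such a range. So did 7 of 8 B and plasma cell genes and 7 of 9 adipocyte genes. Such a range was reached by 1 of 20 interferon-gamma response genes and by none of 20 proliferation genes, 18 glycolysis and hypoxia genes or 10 germline antigen genes. The lists also differed in level. In tumor 36 the T cell list summed to 5889 normalized counts and the proliferation list to 58665. The part of level in these ranges was not tested. The median range was 3.43 for the T cell list, 1.23 for the interferon-gamma response list, 0.64 for the proliferation list, 1.11 for the glycolysis and hypoxia list and 0.98 for the mitochondrial genome. The 61 genes that the study listed with predicted neoantigens in this experiment were all measured, and 6 of them (9.84%) had a 4-fold range.

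**Figure D1:**
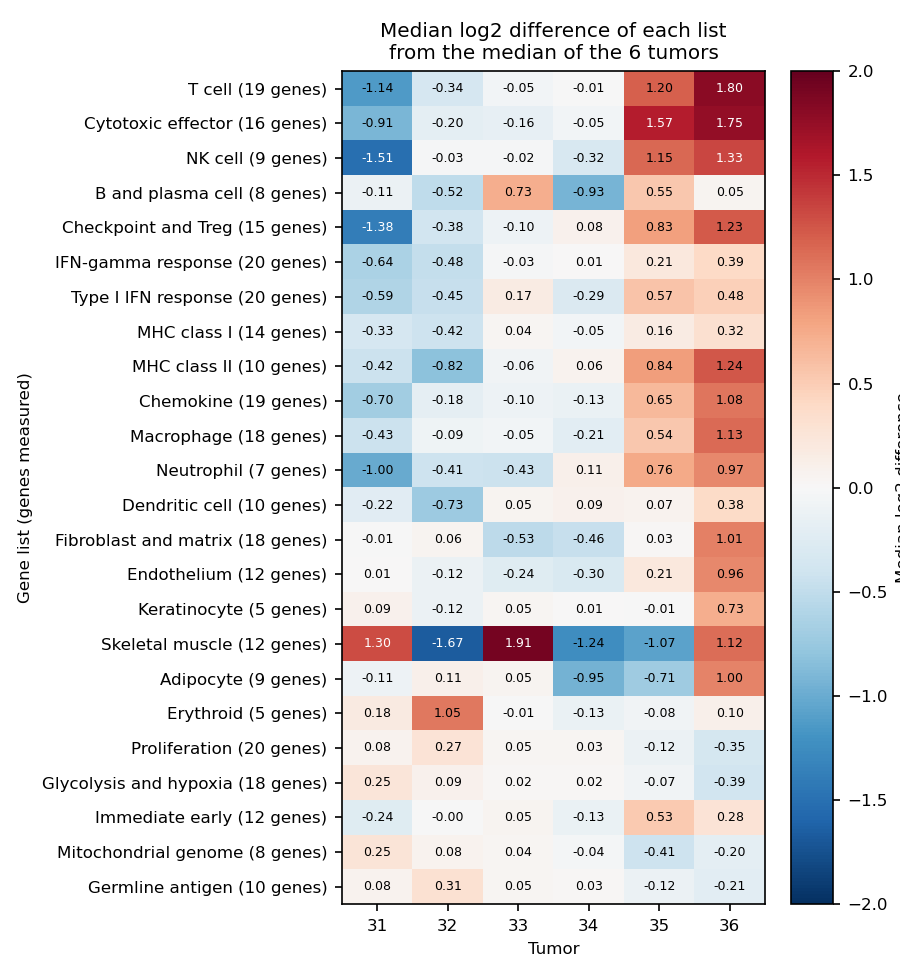
Median over the measured genes of each list of the log2 difference between a tumor and the median of the 6 tumors, with lists as rows and tumors as columns, on log2(normalized count + 1). The T cell list runs from -1.14 in tumor 31 to 1.80 in tumor 36, whereas the skeletal muscle list is high in tumors 31, 33 and 36 and the proliferation list stays within 0.35 of 0.

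Genes at least 2-fold away from the median of the 6 tumors were most numerous in tumor 36. There, 1725 genes (11.2%) stood above and 393 (2.56%) below the median. Tumor 35 had 643 (4.18%) above and 410 (2.67%) below. In the other 4 tumors more genes stood below than above, with 500 (3.25%) above and 851 (5.53%) below in tumor 31, 515 (3.35%) and 1255 (8.16%) in tumor 32, 442 (2.87%) and 645 (4.19%) in tumor 33, and 265 (1.72%) and 900 (5.85%) in tumor 34. In tumor 36, 15 of 19 T cell genes, 14 of 16 cytotoxic genes and 10 of 18 macrophage genes were 2-fold above, while no T cell gene was 2-fold below. In tumor 31, 11 T cell genes and 9 of 15 checkpoint and regulatory T cell genes were 2-fold below and none above. In a principal component analysis of the 1000 genes of largest variance, the leading component took 33.6% of the variance and set tumor 32 (score -46.3) at the opposite end from tumor 36 (46.1). The next component took 25.4% and set tumors 31 (-38.4) and 33 (-30.5) apart from the other 4.

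CD8 T cell genes differed many fold between the tumors. Cd8a (chr6:71373427-71379173, GRCm38), which encodes the CD8 alpha chain, read 15.2, 37.6, 120.2, 95.5, 379 and 397 normalized counts in tumors 31 to 36, a 26.1-fold range. Its values rose in the order 31, 32, 34, 33, 35 and 36. The largest gap, 1.65, lay between tumors 31 to 34 and tumors 35 and 36 and was 0.356 of the whole log2 range of 4.62. By the rule set here, separate groups needed a gap larger than the rest of the range, so Cd8a was used as a continuous value. Cd3e, the epsilon chain of the T cell receptor complex, read 7.20, 32.4, 41.3, 43.9, 106 and 191. Icos, a costimulatory receptor of activated T cells, read 142, 187, 208, 319.97, 782 and 1198. Both were lowest in tumor 31 and highest in tumor 36. Cd4 stood at 19.2, 18.8, 7.51, 20.1, 24.6 and 25.9 normalized counts, so that tumor 33 was lowest and the other 5 lay within 18.8 to 25.9. Foxp3, the factor that defines regulatory T cells, read 0.800, 4.18, 3.76, 0.955, 11.4 and 20.8, at or near the limit of 3 reads in tumors 31 to 34.

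Effector genes followed a similar order. Ifng read 29.6, 55.4, 72.6, 112, 113 and 203 normalized counts in tumors 31 to 36, a 6.87-fold range. Gzmb, a granule protease of cytotoxic cells, read 180.01, 271, 269, 338, 909 and 872. Prf1, the pore-forming protein perforin, was low, at 10.4, 5.23, 11.3, 7.64, 48.3 and 37.4. Tumors 35 and 36 were the highest for Gzmb and Prf1, and for Ifng tumors 34 and 35 were nearly equal. Eomes, a transcription factor of memory and effector T cells, differed from this order, with 100.003, 116, 154, 109, 90.8 and 72.6 and its highest value in tumor 33. Levels of the neighboring granzyme genes Gzmc to Gzmg are uncertain, because they are close copies and the counting kept a single alignment for a read that matched several places.

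**Figure D2:**
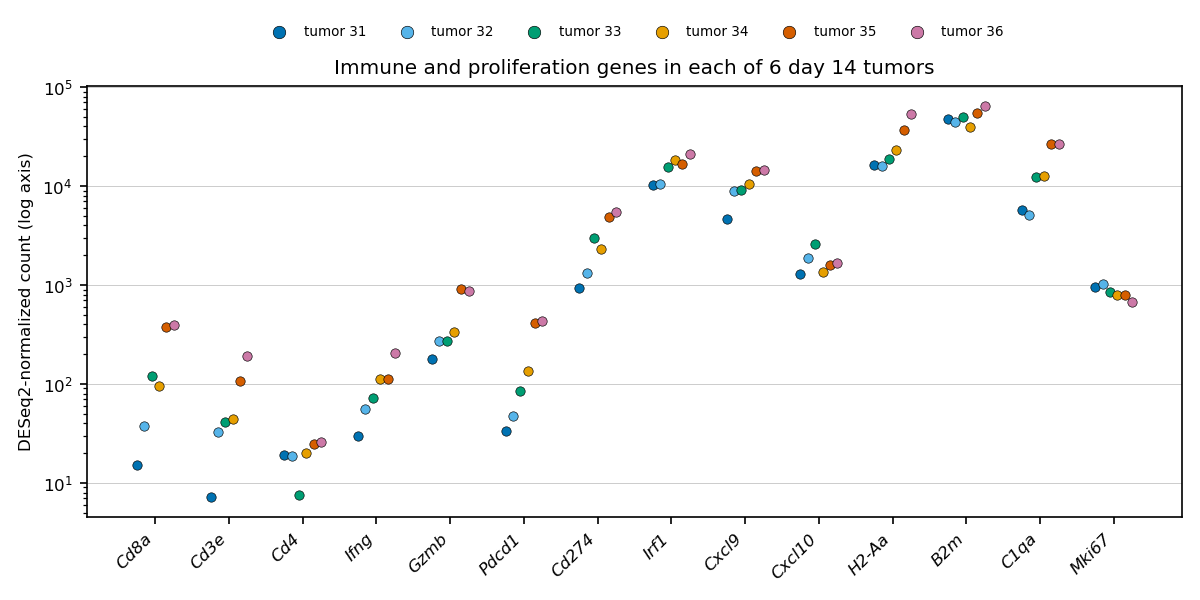
DESeq2-normalized counts (log axis) of 14 immune and proliferation genes, with a point for each of the 6 tumors and no error bar because a tumor is a single library. Cd8a, Cd3e, Pdcd1 and Cd274 are lowest in tumor 31 and highest in tumors 35 and 36, whereas Cd4, Cxcl10 and B2m do not keep that order and Mki67 is lowest in tumor 36.

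Genes that vary together with the CD8 T cell signal were sought with a limma slope for every measured gene, regressing log2(normalized count + 1) on the same value of Cd8a over the 6 tumors. A slope of 1 means that a gene doubles when Cd8a doubles. The fit takes the 6 tumors as 1 group of unassigned arms, so a slope may hold a difference between the antibodies. At an adjusted p below 0.05, 822 of 15380 genes rose with Cd8a (5.34%) and 332 fell (2.16%), with 14226 not past the threshold and a median slope of 0.00 over all genes. Leaving out single tumors lowered the counts: 502 genes rose and 164 fell without tumor 32, 192 and 35 without tumor 35, and 189 and 30 without tumor 36, and 221 fell without tumor 31. Without the trend of variance on level, 9 genes rose and 0 fell at the adjusted threshold in limma, although 1968 rose and 1425 fell at an unadjusted p below 0.05. Scaling each library to the same total moved the split to 703 rising and 479 falling.

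Of the T cell list, 15 of 18 genes rose with Cd8a and none fell, with a median slope of 0.62 (SE is given after ±, n = 6 tumors throughout). Counts for this and the following lists stand against 5.34% rising and 2.16% falling among all genes tested. Cd3e had a slope of 0.82 ± 0.12 (adjusted p = 0.00711). Cd8b1, the beta chain that pairs with Cd8a, had a slope of 0.76 ± 0.11 (adjusted p = 0.00595). The exceptions were Cd4, Cd28 and Trbc1, and Cd4 had a slope of 0.07 ± 0.17 (adjusted p = 0.837). The T cell count was 6 without tumor 36 and 1 without the variance trend. The levels of Trbc1 and Trbc2 are uncertain, since these near-identical constant regions share reads.

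Cytotoxic and NK receptor genes rose in part. Of 16 effector genes, 7 rose, namely Ifng, Gzma, Gzmb, Gzme, Gzmk, Nkg7 and the transcription factor Tbx21, and none fell. Nkg7, a granule membrane protein, had a slope of 0.68 ± 0.08 (adjusted p = 0.00309). Ifng had a slope of 0.48 ± 0.10 (adjusted p = 0.0227), and Prf1 one of 0.53 ± 0.20 (adjusted p = 0.126), which did not pass. Of 9 NK genes, 3 rose, and these encode lectin-like receptors that activated CD8 T cells also carry. Klrc1 (NKG2A) read 66.4, 138, 389, 401, 879 and 1485 normalized counts and had a slope of 0.90 ± 0.06 (adjusted p = 0.000466). Klrk1 (NKG2D) had a slope of 0.69 ± 0.06 (adjusted p = 0.00133). These 2 genes passed under every alternative tried, and Klrd1 (CD94), the other of the 3, passed whichever tumor was left out but not without the variance trend. Ncr1, the receptor NKp46 that marks NK cells, read 4.0 to 24.9 and did not pass (0.52 ± 0.18 (adjusted p = 0.102)). None of 8 B and plasma cell genes passed in either direction. The effector count was 2 without tumor 35 and 0 without the variance trend. Ifng did not pass without tumors 31, 35 or 36 in turn.

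Of 15 checkpoint and regulatory T cell genes, a list that also holds costimulatory genes, 7 rose and none fell. Cd274 (PD-L1, chr19:29367455-29388095), the target of the antibody, read 930.4, 1329.97, 3000.1, 2290.4, 4906 and 5488 normalized counts in tumors 31 to 36 and had a slope of 0.56 ± 0.04 (adjusted p = 0.000466). It passed under every alternative tried. Pdcd1 (PD-1) read 33.6, 47.1, 85.1, 135, 415 and 436 and had a slope of 0.82 ± 0.10 (adjusted p = 0.00332). Pdcd1lg2, which encodes the other PD-1 ligand PD-L2, had a slope of 0.73 ± 0.12 (adjusted p = 0.0105), and Havcr2 (TIM-3) one of 0.44 ± 0.07 (adjusted p = 0.00742). Tnfrsf4 (OX40), Tnfrsf18 (GITR) and Cd86 also rose. Ctla4, with 32.4 to 109 normalized counts, had a slope of 0.23 ± 0.11 (adjusted p = 0.23) and Foxp3 one of 0.64 ± 0.27 (adjusted p = 0.172), and neither passed. The checkpoint count was 3 without tumor 35 and also 3 without tumor 36, and Pdcd1lg2 was among the calls lost in both. Without the variance trend the checkpoint count was 1.

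Interferon-gamma response genes rose in 12 of 20 cases, with a median slope of 0.23 against 0.62 for the T cell list. Ciita, which switches on MHC class II genes, had the steepest slope of the list, 0.48 ± 0.07 (adjusted p = 0.00601). Gbp5, whose promoter was shown, read 443, 536, 810.1, 709.7, 1314 and 1588 normalized counts in tumors 31 to 36 and had a slope of 0.39 ± 0.05 (adjusted p = 0.00332). Irf1 read 10135, 10488, 15742, 18448, 16767 and 21153, a 2.09-fold range, and had a slope of 0.21 ± 0.05 (adjusted p = 0.0389). Socs1, a feedback inhibitor of the pathway, had a slope of 0.22 ± 0.05 (adjusted p = 0.0433). Cxcl9 read 4613, 8894, 9199, 10515, 14044 and 14539.7 and had a slope of 0.31 ± 0.05 (adjusted p = 0.00859). Its relatives Cxcl10 and Cxcl11, known to be induced by the same cytokine, did not pass, with a slope of 0.05 ± 0.07 (adjusted p = 0.717) for Cxcl10 and its highest level, 2599, in tumor 33. The receptor chain Ifngr1 rose (0.37), while Ifngr2 had a slope of -0.06 ± 0.05 (adjusted p = 0.507). The count of 12 was 8 without tumor 31, also 8 without tumor 35, and 0 without the variance trend. Irf1 and Socs1 each passed in only 1 of the 6 fits with a tumor left out, that without tumor 34, and Cxcl9 did not pass without tumor 31.

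Type I interferon response genes rose in 9 of 20 cases. Irf7, which amplifies type I interferon production, read 409, 662, 1207, 943, 3013 and 2745 normalized counts and had a slope of 0.62 ± 0.05 (adjusted p = 0.000466). Isg15, a ubiquitin-like antiviral protein, had a slope of 0.43 ± 0.06 (adjusted p = 0.00503). For 14 of the 20 genes tumor 35 was the highest, whereas tumor 36 was the highest for 16 of the 20 interferon-gamma response genes. Over all measured genes tumor 35 was the highest for 9.93% and tumor 36 for 25.3%. The count was 4 without tumor 35 and 1 without the variance trend.

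Antigen presentation genes rose in part in both classes. MHC class II genes rose in 7 of 10 cases (median slope 0.35). H2-DMb1, a peptide-loading subunit, read 3592, 3069.8, 8195, 8471, 14895 and 17727 normalized counts and had a slope of 0.54 ± 0.07 (adjusted p = 0.00358). Cd74, the invariant chain, had a slope of 0.46 ± 0.07 (adjusted p = 0.00795). H2-Ab1, with 6570.4 to 19643, did not pass (0.26 ± 0.08 (adjusted p = 0.0828)). Class I genes rose in 5 of 14 cases, and these were the peptide transporters Tap1 and Tap2, the proteasome components Psmb9 and Psme2, and the nonclassical molecule H2-T23. H2-T23, whose product Qa-1 is the ligand of NKG2A, read 110.4, 155, 301, 389.7, 642 and 795 and had a slope of 0.60 ± 0.06 (adjusted p = 0.00192). B2m, the light chain of every class I molecule, read 47522, 44137, 49563, 39825, 54346 and 64873 and had a slope of 0.09 ± 0.06 (adjusted p = 0.387). H2-K1 and H2-D1, the classical heavy chains, did not pass either, with slopes of 0.12 and 0.16, although H2-K1 passed without tumor 31 (slope 0.25, adjusted p = 0.0436 in limma) and H2-D1 passed in DESeq2 (adjusted p = 0.042). The class II count was 2 without tumor 35 and 0 without the variance trend. The class I count was 1 without tumor 35 or without tumor 36. It was 0 without the variance trend and 2 to 7 under the other settings.

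**Figure D3:**
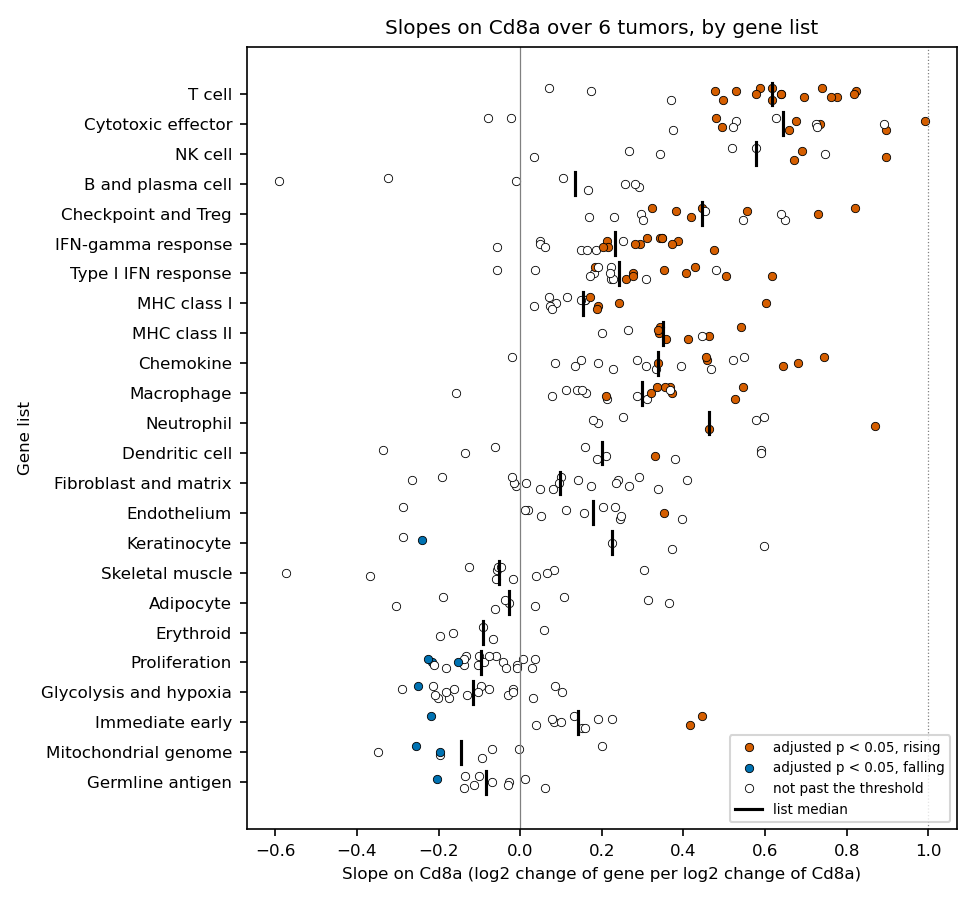
Slope of each measured list gene on Cd8a (log2 change of the gene per log2 change of Cd8a over 6 tumors), grouped by list, with filled points for genes past an adjusted p of 0.05 in limma and a black bar at the list median. T cell genes cluster around 0.62 and interferon-gamma response genes around 0.23, and the few blue points are falling genes of proliferation, metabolism, the mitochondrial genome and, singly, of other lists.

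Myeloid genes and chemokines moved in part with Cd8a. Of 18 macrophage genes 8 rose, with C1qa, a complement component made by tissue macrophages, at 5664, 5122, 12256, 12547, 26429.7 and 26527 normalized counts and a slope of 0.54 ± 0.06 (adjusted p = 0.0026). Csf1r, the receptor for macrophage colony-stimulating factor, had a slope of 0.37 ± 0.05 (adjusted p = 0.00601). C1qb and C1qc, subunits of the same complement protein, did not pass, with slopes of 0.14 ± 0.04 (adjusted p = 0.0818) and 0.16 ± 0.05 (adjusted p = 0.0792). Of 19 chemokine and chemokine receptor genes 6 rose. Ccl5, a chemokine of T cells and macrophages, read 956, 2197, 1574, 1937, 8130.1 and 8978 and had a slope of 0.64 ± 0.11 (adjusted p = 0.0105). Cxcr6, a receptor of tissue T cells, had a slope of 0.74 ± 0.15 (adjusted p = 0.0176), and its ligand Cxcl16 one of 0.34 ± 0.05 (adjusted p = 0.00503). Of all genes tested 5.34% rose, and of 10 dendritic cell genes 1 (10%). That gene was Batf3, a factor of cross-presenting dendritic cells (0.33 ± 0.07 (adjusted p = 0.019)). Xcr1, the receptor of those cells, read 64.8, 36.6, 329, 317, 351 and 234 and had a slope of 0.59 ± 0.17 (adjusted p = 0.0575). Of 7 neutrophil genes Csf3r and Il1b rose, but Ly6g, Retnlg and Cd177, which define these cells, had too few reads to be measured. The macrophage count was 2 without tumor 35, and the chemokine count was 2 without tumor 35 or without tumor 36. Both counts were 0 without the variance trend. Neither Batf3 nor Ccl5 passed without tumor 35 or without tumor 36. Cxcr6 did not pass without tumors 31, 35 or 36 in turn.

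Single genes of different cell types were also set against Cd8a as a family of 18 correlations, where the smallest two-sided p that the 720 orders of 6 tumors allow is 0.00139 for r and 0.00278 for rho. The adjusted p of Pearson's r was below 0.05 for Ifng, Gzmb, Pdcd1, Cd274 and Cxcl9, and that of Spearman's rho for 0 of 18. A lone gene at the smallest p of rho reaches an adjusted p of 0.05 and not below it, so this 0 carries little weight. Cd274 gave r = 0.995 and rho = 1.00 (exact permutation p = 0.00139 and 0.00278, adjusted 0.025 and 0.05). Pdcd1 gave r = 0.965 and rho = 0.94 (exact permutation p = 0.00694 and 0.0167, adjusted 0.0312 and 0.06). Left without tumors 31 and 36, the farthest from the median of Cd8a, r was 0.990 for Cd274, 0.949 for Pdcd1 and 0.762 or more for Ifng, Gzmb and Cxcl9. Mki67, a protein of dividing cells, gave r = -0.863 and rho = -0.89 (exact permutation p = 0.0333 and 0.0333, adjusted 0.0857 and 0.1) and did not pass the correction. Cd4 gave r = 0.217 and rho = 0.60 (exact permutation p = 0.701 and 0.242, adjusted 0.785 and 0.29), and Acta1 gave r = -0.162 and rho = -0.14 (exact permutation p = 0.742 and 0.803, adjusted 0.785 and 0.85). For Prf1, Foxp3, B2m, H2-Ab1, Adgre1, S100a8, Pecam1, Col1a1 and Epcam the adjusted p of r lay at 0.0861 or above. Epcam was under the level for measured genes.

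Falling genes were fewer and shallower, with slopes from -0.97 to -0.14 against 0.14 to 1.55 for rising genes. Among all genes tested 2.16% fell. Among 20 proliferation genes 3 fell (15%) and none rose, and among 18 of glycolysis and hypoxia 1 fell (5.56%). Pcna, the sliding clamp of DNA replication, read 2222, 1802, 1409, 1346, 1203 and 967 normalized counts and had a slope of -0.23 ± 0.04 (adjusted p = 0.012). Ccna2, a cyclin of S phase, had a slope of -0.22 ± 0.05 (adjusted p = 0.0329), and Rrm2, a subunit of ribonucleotide reductase, one of -0.15 ± 0.04 (adjusted p = 0.049). Mki67 and Top2a did not pass (-0.10 and 0.01). Slc2a1, the glucose transporter GLUT1, read 1838, 1473, 1427, 1080.3, 976 and 681 and was the only gene to fall among 18 of glycolysis and hypoxia (-0.25 ± 0.05 (adjusted p = 0.024)). mt-Nd1 and mt-Cytb fell among 8 measured genes of the mitochondrial genome. mt-Nd1 read 38476, 40638, 32419, 41176, 17543 and 19696 and had a slope of -0.26 ± 0.07 (adjusted p = 0.0462). Of the 11 listed genes of this genome mt-Co3 had no read in any tumor. mt-Co2 and mt-Atp6 were under the level for measured genes. Rrm2 passed in 0 of the 6 fits with a tumor left out, Ccna2 did not pass without tumors 32, 35 or 36 in turn, and Pcna did not without tumor 31 or tumor 36. The proliferation count was 0 without tumor 36. Each of the other 2 counts was 0 without tumor 32, without tumor 35 or without tumor 36. None of these falling genes passed without the variance trend.

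Rising and falling genes also differed in libraries that the slopes did not use. In the 2 MC38 culture libraries 316 of the 822 rising genes (38.4%) had at most 3 reads, as did 1 of the 332 falling genes (0.30%) and 14.3% of all genes tested. The median level in MC38 was 1.28 CPM (reads scaled to 1000000 per library) for rising genes, 79.0 for falling genes and 13.9 for all genes. Of the falling genes 53.9% were at least 2-fold higher in MC38 than in skin, against 4.62% of rising genes and 26.9% of all. Xist, unread in MC38, read 547, 703, 830.2, 638, 934 and 1722 normalized counts in tumors 31 to 36 and rose with Cd8a (0.26 ± 0.07 (adjusted p = 0.0479)). It did not pass with tumors 31, 32, 33, 35 or 36 left out in turn. The part that the share of host RNA has in the slopes was not tested. Rising and falling genes were not matched by level in the tumors. The part of level in the MC38 shares was not tested either.

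The steepest risers were genes of low level. Ppp2r2c, a regulatory subunit of protein phosphatase 2A (chr5:36868513-36955078), read 0, 0, 8.76, 8.60, 73.8 and 103 normalized counts and had a slope of 1.55 ± 0.22 (adjusted p = 0.00556). Klrc2 (NKG2C, chr6:129647496-129660689) read 0, 4.18, 20.03, 12.4, 76.7 and 137 and had a slope of 1.42 ± 0.16 (adjusted p = 0.0026). It neighbors Klrc1 on chromosome 6 and is a close copy, so reads may be split between them. Vnn3 (chr10:23851462-23869843), a member of the vanin family, read 0, 0, 13.8, 23.9, 51.1 and 36.3 and had a slope of 1.32 ± 0.25 (adjusted p = 0.0156). Ptn, the growth factor pleiotrophin (chr6:36714929-36810220), read 0.800, 53.3, 11.3, 18.1, 114 and 582 and Gpr55, a lipid receptor (chr1:85938318-85961007), read 0, 1.05, 6.26, 0, 31.2 and 63.3, with slopes of 1.29 and 1.25. Each of these 5 genes had 1 read or none in tumor 31, and the size of such slopes moved with the setting. Over the alternatives the slope ran from 1.07 to 2.32 for Ppp2r2c, from 0.83 to 2.09 for Vnn3 and from 0.83 to 1.94 for Gpr55. Ppp2r2c and Vnn3 did not pass without tumor 35 or tumor 36, Ptn did not without tumors 31, 35 or 36 in turn, and Gpr55 passed in 1 of the 6 fits with a tumor left out.

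Among the steepest fallers, tumor 31 was the highest in each case. Rps26, a ribosomal protein with many processed copies in the genome (chr10:128624534-128626747), read 52127, 10349, 11429.5, 12963, 8883 and 6759.9 normalized counts and had a slope of -0.47 ± 0.11 (adjusted p = 0.0289). Cdr2, a cytoplasmic protein gene (chr7:120957036-120982312), read 1351, 477, 239, 362, 316 and 202 and had a slope of -0.47 ± 0.09 (adjusted p = 0.0198). Mcpt1, a mast cell protease (chr14:56017971-56020384), read 134, 55.4, 23.8, 28.7, 25.6 and 12.5, with a slope of -0.59 ± 0.13 (adjusted p = 0.028). The unnamed loci A430010J10Rik and 3010003L21Rik had slopes of -0.97 and -0.45. Without tumor 31 the slope of Rps26 was -0.18 and that of Cdr2 was -0.26, and neither passed. Mcpt1 did not pass without tumors 31, 32 or 36 in turn, and A430010J10Rik passed in 1 of 6 such fits.

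Skeletal muscle RNA varied most, in an order of its own. Acta1, the skeletal muscle actin, read 33084, 6181, 46110.04, 6471, 5364 and 25416 normalized counts in tumors 31 to 36. Ckm, the muscle creatine kinase, read 8215, 743, 18033, 1259, 972 and 6958, and Myh4, a fast myosin heavy chain, read 4643, 64.8, 2881, 165, 124 and 821. For all 12 muscle genes tumors 31, 33 and 36 were above tumors 32 and 34. Of the 10 genes of largest range with a median of at least 20, Myh7, Myl3, Myod1, Myh4 and Ankrd2 are muscle genes as well. Myh7, the slow myosin heavy chain, read 560.02, 0, 351, 47.8, 0 and 0, at least 179-fold higher in tumor 31 than in tumor 32, where the limit of 3 reads stood in for 0. Myl3, a slow muscle light chain, read 274, 0, 452, 60.2, 1.89 and 2.08. Both slow fiber genes were high in tumors 31 and 33 and had 2 reads or fewer in tumor 36, where Acta1 was high. None of the 12 muscle genes rose or fell with Cd8a.

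Most matrix, vessel and fat genes were highest in tumor 36. Col1a1 (chr11:94936224-94953042), the main collagen of fibroblasts, read 9851, 8369, 4749, 3034, 7825 and 20649 normalized counts in tumors 31 to 36. Tumor 36 was the highest for 15 of 18 matrix genes, 9 of 12 endothelial genes and 6 of 9 adipocyte genes, as it was for 25.3% of all measured genes. Pdgfra, a surface receptor of fibroblasts, read 885, 731, 790.1, 712, 834 and 901, a range of 1.27-fold. Col6a1 went another way, with 4033, 4881, 1412, 3346, 2503 and 2732 and its highest value in tumor 32. None of the 18 matrix genes rose or fell with Cd8a. Of 12 endothelial genes only Eng, a TGF-beta coreceptor, rose (8.33%, against 5.34% of all genes tested). Its slope was 0.35 ± 0.06 (adjusted p = 0.0126), a call lost without tumor 35 or tumor 36. With Col1a1 in the place of Cd8a, limma called 0 genes rising and 0 falling of 15380 (0% each), with 765 and 257 at an unadjusted p below 0.05. edgeR also called 0, and DESeq2 called 118 rising and 3 falling. Among the other genes of largest range, Ptn, Tnn, Egfl6 and Ccl21a were highest in tumor 36 and Matn4, a cartilage matrix protein, in tumor 33. Ccl21a, a chemokine of lymphatic vessels, read 154, 184, 129, 2.87, 207 and 303. Its near-identical copies make that level uncertain.

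**Figure D4:**
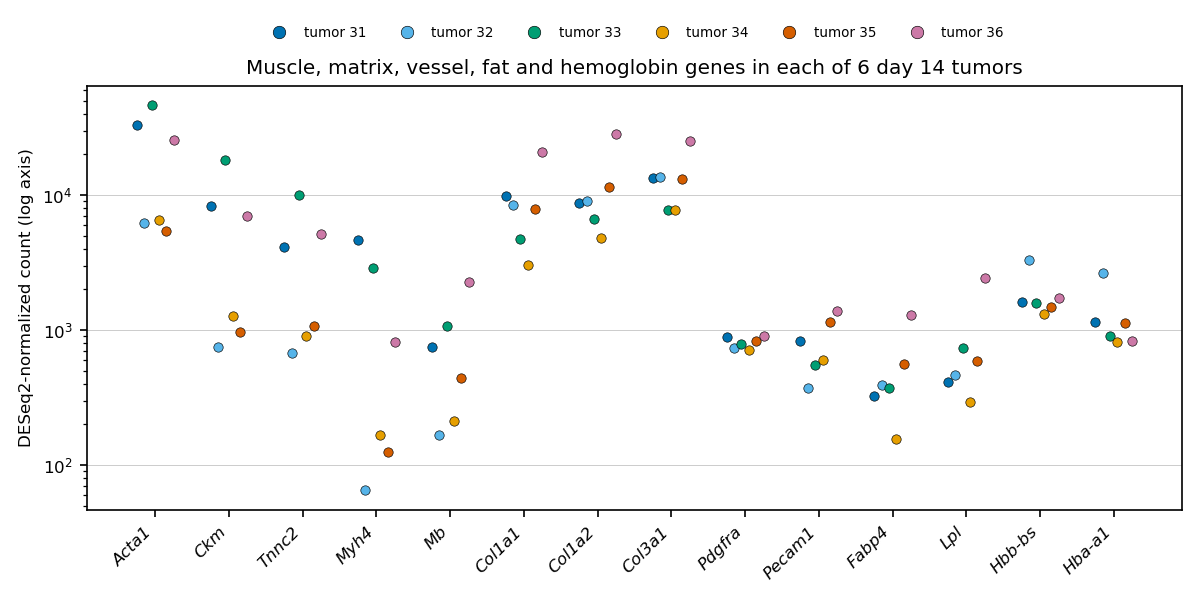
DESeq2-normalized counts (log axis) of 14 genes of muscle, matrix, vessels, fat and red blood cells, with a point for each of the 6 tumors. Muscle genes such as Ckm are high in tumors 31, 33 and 36, collagens are highest in tumor 36, and hemoglobin genes are highest in tumor 32.

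Genes of highest level varied little. mt-Rnr2, the large ribosomal RNA of mitochondria, read 217223, 204511, 256739, 211953, 210465 and 270448 normalized counts. S100a6, a calcium-binding protein, read 209633, 149461, 179428, 208243, 199074 and 133765 and was lowest in tumor 36. Actb, beta-actin, read 100082, 110715, 131024, 116830.4, 177548 and 174226 and was highest in tumors 35 and 36. The ribosomal protein gene Rps14 and Pabpc1, the poly(A)-binding protein, completed the 5 highest, with ranges of 1.56-fold and 1.54-fold. Hemoglobin genes were highest in tumor 32, where Hbb-bs read 1617, 3321, 1596, 1309, 1476 and 1719 across tumors 31 to 36.

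Beside the other libraries of the series, levels can only be described, because the day, the number of injected cells, the antibody that every day 14 mouse received, the piece of tumor taken (complete here, a random piece there) and the table of normalization all differ and cannot be told apart. Values here are CPM, reads scaled to 1000000 per library. All 6 day 14 tumors stood above all 6 wild-type tumors of days 23 and 46 (3 of each day) for 13.8% of 16053 genes and below them for 16.6%. Above them stood 8 of 20 interferon-gamma response genes, 5 of 15 checkpoint and regulatory T cell genes and 5 of 10 dendritic cell genes. So did 6 of 12 muscle genes and 7 of 12 immediate early genes. Below them stood 5 of 8 mitochondrial genes and 5 of 18 glycolysis and hypoxia genes. Cd274 ran from 56.5 to 314 in the day 14 tumors, 11.8 to 35.7 in the wild-type tumors of the later days, and 7.43 to 11.3 in day 13 tumors of RAG1 knockout mice, which lack T and B cells. Xcr1 ran from 2.23 to 20.5 at day 14 against 0.273 to 1.83 later. Cd8a overlapped, with 0.923 to 22.8 at day 14 and 0.502 to 7.31 later, and 2 day 14 tumors above all of the later ones. Igkc, the kappa light chain of plasma cells, went the other way, with 0.558 to 6.23 at day 14 and 4.38 to 23.5 later. B2m was below all later tumors, at 2328 to 3714 against 5588 to 7051. Acta1 ran from 313 to 2737 at day 14 and from 0.908 to 61.9 later, and the skin libraries had 2130.3 to 3412.

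**Figure D5:**
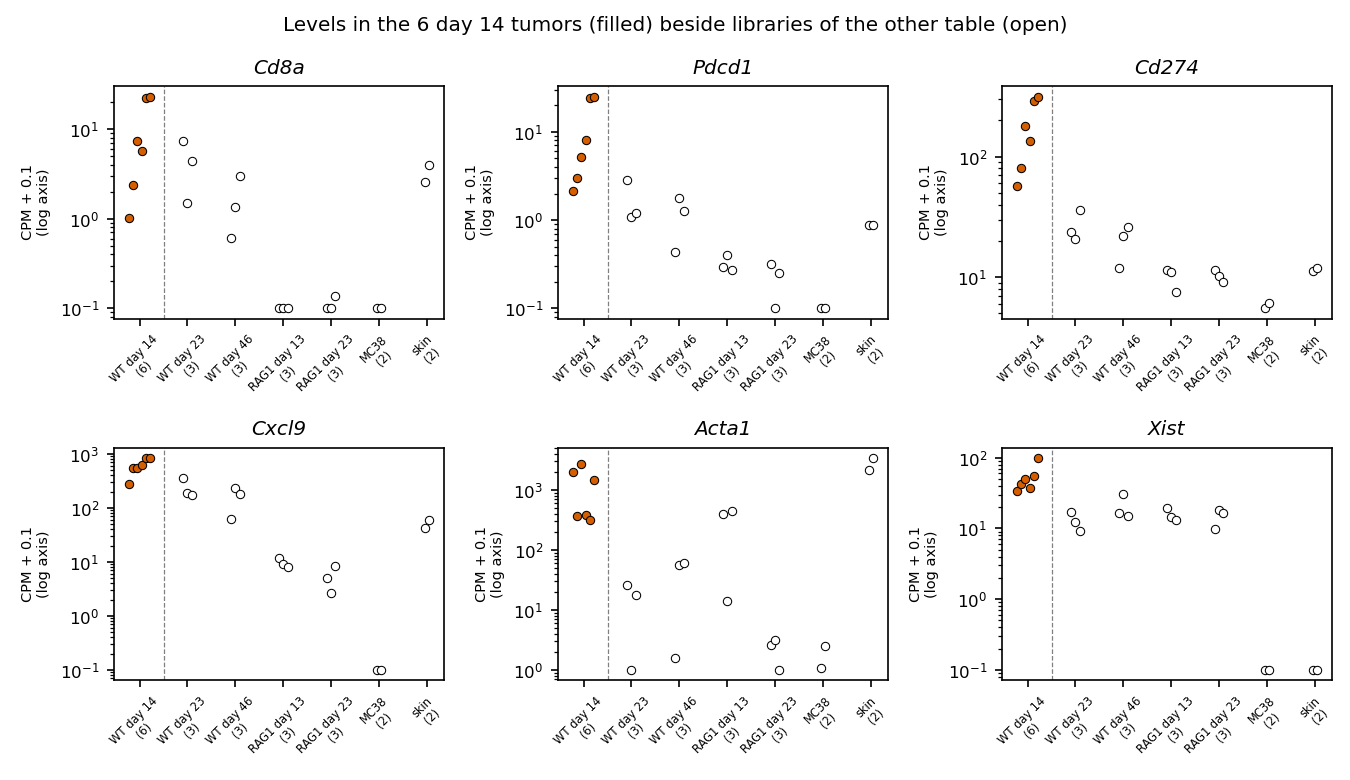
CPM plus 0.1 (log axis) of 6 genes, with filled points for the 6 day 14 tumors and open points for the libraries of the other table (number of libraries in parentheses). Cd274, Acta1 and Xist in the 6 day 14 tumors lie above all wild-type tumors of days 23 and 46, whereas Cd8a overlaps with them, and day, cell number and table differ between the filled and open points of the tumors.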

How the data were processed

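Per the labels and the methods of the study, the authors made 3′ QuantSeq libraries from total RNA, sequenced them on an Ion Proton, trimmed reads with cutadapt and Trimmomatic (reads under 22 nucleotides removed), aligned them to mm10 with STAR and then Bowtie2, kept the primary alignment, counted with HTSeq and normalized with DESeq2. Versions, annotation and strand setting are not given in the sources used here. The deposited values are a signal: read counts divided by a size factor per library, in 1 column per tumor. All values (100%) were whole multiples, within 0.001 reads, of the smallest value of their column, so whole reads were recovered.

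From these values, log2(normalized count + 1) of genes averaging 5 or more was fitted by limma 3.58.1 with a variance trend (R 4.3.3), with the Benjamini-Hochberg adjustment and a threshold of 0.05. The recovered reads were also tested with edgeR 4.0.16 and with DESeq2 1.42.0, as alternatives. Correlations used exact two-sided permutation tests. Scripts were tested on simulated data. The other table of 16 libraries, normalized separately by the authors, was used only for levels in CPM. The labels do not tie each tumor to a separate mouse, and p-values measure the spread between these 6 libraries. Slopes, r and p-values treat the 6 tumors as 1 group, although the labels give 3 to each antibody. Genes that move with Cd8a between the antibodies cannot be told apart from genes that move with it within them. Genes named are members of the lists, the 5 steepest slopes in each direction, the 10 largest ranges with a median of at least 20 and the 5 highest medians. The members and lists were chosen with earlier results of these data known. Gene positions are from GENCODE vM21 (GRCm38), the build of mm10. No list gene was tested as a set, and counts cover differences between 6 tumors of unassigned arms. The values of 1 gene are not reported here, and counts include it.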

Additional observations from a re-analysis of the deposited data

Results flagged for a closer look

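In 120 sets of 6 values examined (levels of the genes described, list medians and library measures), 5 held a tumor far from the other 5, by a test of the gap to the nearest tumor over the whole range. Chance gives about 1 in 20 of such sets, so 5 of 120 is not more than chance gives. Rps26 in tumor 31 read 52127 normalized counts against 12963 or less in the others (gap ratio 0.681). Hbb-bs in tumor 32 read 3321 against 1719 or less (0.707), and Hba-a1 in tumor 32 read 2660 against 1146 or less (0.712). The median of the erythroid list in tumor 32 was 1.05 above the median of the 6 on the log2 scale against 0.18 or less in the others (0.733), which holds the same hemoglobin genes. The median of the 5 measured keratinocyte genes in tumor 36 was 0.73 against 0.09 or less (0.756), with Krt5 and Krt1 at or near 0 reads. Of these 5 genes, 1 was highest and 2 were lowest in tumor 36, so they did not move there together.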

How the results depend on the processing

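No paired analysis was possible because the columns carry no replicate number and no test compared groups. Leaving out each tumor in turn gave 189 to 798 genes rising with Cd8a and 30 to 287 falling, 0 of either with Col1a1, 0 to 6 of the 18 correlations past the threshold (with 5 tumors the test has fewer orders), and 35.98% to 41.4% of variance on the leading component. The variance trend removed, 9 rose and 0 fell with Cd8a. DESeq2 called 1393 and 785 with Cd8a and 118 and 3 with Col1a1, and 36.3% of variance lay on the leading component with 5000 genes. The counts of genes with a 4-fold range were 2074 with a pseudocount of 5, 7022 without a filter on low values and 1407 with a mean of at least 20. With a pseudocount of 5, genes 2-fold below the median numbered 492, 822, 323, 523, 187 and 173 in tumors 31 to 36, and those above numbered 293 in tumor 33 and 136 in tumor 34. With a mean of at least 20, genes 2-fold above numbered 219, 147, 176, 62, 361 and 1140 in tumors 31 to 36 and those below 378, 593, 227, 376, 150 and 128. Low genes drop out or shrink by construction under these settings. Signs turned only for values not past the threshold. With each tumor left out in turn, r with Cd8a ran from -0.362 to 0.485 for Col1a1, from -0.241 to 0.331 for Epcam and from -0.391 to 0.225 for Acta1, and the slope on Cd8a from -0.0512 to 0.0817 for Cxcl10 and from -0.0418 to 0.0730 for Top2a. Equal library totals gave Top2a a slope of -0.00934. Of 64 single genes past the threshold with Cd8a that were followed through the alternatives, 5 passed under all of them (Klrc1, Klrc2, Klrk1, Cd274 and Irf7), 24 passed under all but the removal of the variance trend or under that too, and none changed sign. A count of 0 limits a gene to 3 reads, 2.40 to 3.76 normalized counts, in a tumor, and covers counting error only.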
